A study of Homo sapiens with 40 samples.

Results

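The 9 genes described here, PDX1, NKX6-1, NKX2-2, NEUROD1, ISL1, PAX6, RFX6, MNX1 and MAFA, encode the transcription factors that are used to define beta-cell identity. They were taken by name from the 20020 protein-coding genes of GENCODE 44. No filter on measured values was applied, but earlier results of these data were known when they were chosen. A peak was given to a gene if it lay within 2 kb of a start site of that gene, overlapped its gene body, or had it as the nearest start site within 100 kb. By this rule the 9 genes held 62 of the 51489 H3K27ac peaks and 36 of the 51457 CTCF peaks in the deposited tables.

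Beta cells of the pancreatic islet make and secrete insulin, and a small network of homeodomain, helix-loop-helix, winged-helix and basic leucine zipper factors keeps them in that state. PDX1, NEUROD1 and MAFA bind the insulin promoter, while NKX6-1, NKX2-2, ISL1, PAX6, RFX6 and MNX1 set up the endocrine and beta-cell programmes during development and several of them keep other islet hormones silent. Acetylation of histone H3 at lysine 27 (H3K27ac) marks active promoters and enhancers, and genes of this kind are known to sit in long acetylated domains. CTCF is a zinc-finger protein that binds a long DNA motif and anchors chromatin loops.

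The cells were EndoC-βH3, a human beta-cell line immortalized with excisable transgenes and carrying the tamoxifen-inducible CreER recombinase, with the genotype given as WT in the labels. Senescent cells had received 4-hydroxytamoxifen (4-OHT) for 3 weeks, and non-senescent cells had the control treatment, which the labels do not describe further. Senescence, exposure to 4-OHT and loss of the transgenes came together in the treated cells and cannot be told apart. H3K27ac and CTCF were each measured by chromatin immunoprecipitation and sequencing (ChIP-seq) in 3 senescent and 3 non-senescent libraries of this same line, and the labels do not say that these came from separate cultures, so p-values measure the spread between libraries. The deposited tables give, for each peak, a mean normalized count over the 6 libraries, a log2 fold change of senescent over non-senescent cells with its standard error, and an adjusted p from the DESeq2 test by the authors. They hold no value per library, so the level in each state is given here as the pair of means that the deposited mean and fold change imply, without an error of its own, and the error of the comparison is the standard error (SE) of the log2 fold change. Peaks were called gained or lost at the thresholds of the study, a fold change above 1.5 with an adjusted p under 0.05 for H3K27ac and under 0.2 for CTCF.

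The identity of the line was read from H3K27ac at the promoters of marker genes. All 6 beta-cell markers had a promoter peak, with summed implied counts of 23323 in non-senescent and 27367 in senescent cells. No promoter peak was present at GCG or PPY, or at the 6 endothelial, leukocyte and fibroblast markers. Promoter peaks were found at 4 of 5 alpha-cell markers (summed counts 6077 and 6138), at 2 of 2 delta-cell markers (527 and 308), at 2 of 5 acinar markers (1579 and 1799) and at 1 of 4 duct markers, KRT19 (1143 and 683). The delta-cell markers SST and HHEX and the duct marker KRT19 were lost in senescent cells, and their part in the values of the 9 genes was not tested.

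The start sites of ISL1 and NKX6-1 are shown first, because they belong to the gene with the largest promoter change and to the gene with the strongest gained distal peak. The 250 bases before each start site are from RefSeq (GRCh38.p14), and capitals mark the CCAAT box, searched as CCAAT on both strands.
ISL1 promoter, chr5:51383198-51383447 (forward strand): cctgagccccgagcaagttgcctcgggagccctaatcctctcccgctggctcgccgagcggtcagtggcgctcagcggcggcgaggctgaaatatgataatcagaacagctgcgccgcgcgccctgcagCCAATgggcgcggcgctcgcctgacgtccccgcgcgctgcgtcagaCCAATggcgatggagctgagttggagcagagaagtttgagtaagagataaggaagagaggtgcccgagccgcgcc
NKX6-1 promoter, chr4:84499293-84499542 (reverse strand): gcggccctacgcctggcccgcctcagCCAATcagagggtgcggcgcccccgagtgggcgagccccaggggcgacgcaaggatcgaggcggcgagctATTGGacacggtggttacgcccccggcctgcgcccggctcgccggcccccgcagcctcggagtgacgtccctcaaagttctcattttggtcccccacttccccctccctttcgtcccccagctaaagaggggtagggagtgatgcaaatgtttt
Each holds the box at 2 positions, and it is present in 34.6% of all 35116 RefSeq promoters. Over the full windows of 300 bases, which reach 50 bases past the start site, ISL1 had 36 and NKX6-1 had 24 CG dinucleotides, against a median of 14, and neither had TATAAA on either strand, which 11.5% of all promoters have. Promoter entries matched 6 of the 9 genes by symbol.

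At their promoters, 8 of the 9 identity genes lay in wide H3K27ac domains, and none of these domains passed the threshold for a gain or a loss. Of 13065 protein-coding genes with a promoter H3K27ac peak, the median peak was 2.98 kb wide with a mean of 601 counts. The promoter peaks of PAX6 (30.3 kb), NKX2-2 (28.5 kb), MNX1 (25.8 kb), RFX6 (24.9 kb), PDX1 (20.6 kb), ISL1 (17.1 kb), NEUROD1 (14.9 kb) and NKX6-1 (9.01 kb) were all wider than those of at least 94.6% of these genes. Set per length, their mean H3K27ac was 537 counts per kb at PAX6, 493 at PDX1, 484 at NKX2-2, 477 at ISL1, 434 at MNX1 and 391 at NEUROD1, against a median of 184 over the 13065. NKX6-1 and RFX6 were lower, with 272 and 267 counts per kb. MAFA stood apart, with a promoter peak of 0.881 kb that was wider than only 3.66% of the others and held 49.5 counts per kb. A larger peak of MAFA, 8.25 kb wide with 244 counts per kb, lay upstream of the 2 kb window and is described below. The scatter of width against mean count shows 8 of the 9 genes at the upper right end and MAFA at the lower left.

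**Figure D1:**
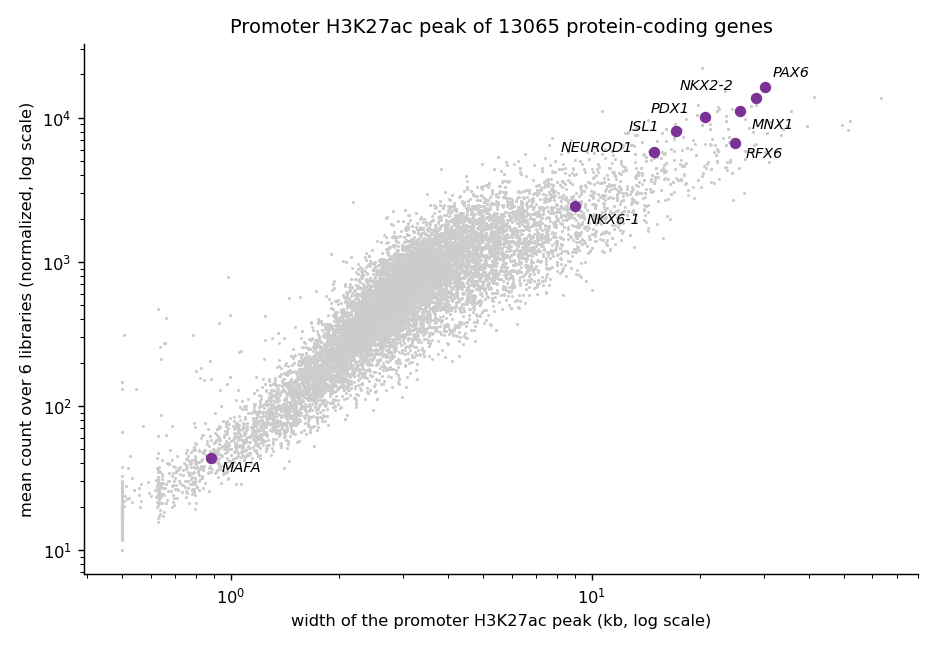
Width in kb (x axis, log scale) against mean normalized count over the 6 libraries (y axis, log scale) of the promoter H3K27ac peak of 13065 genes (grey points), with the 9 identity genes in purple. Of the 9, PAX6 lies highest at 16247 counts and MAFA lowest at 43.6.

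None of the 9 promoter peaks was gained or lost in senescent cells, where 4.53% of all promoter peaks were gained and 9.81% lost, and 8.67% of all peaks of 9 kb or more were called in either direction. Over peaks of every kind, 9.47% were gained and 13.1% lost. At an unadjusted p under 0.05 (DESeq2 by the authors), 3 of the 9 were higher and 2 were lower. For 7 of the 9, the 95% interval of the change lay within a fold of 1.5 in either direction. The exceptions were ISL1, whose interval reached just past it, and MAFA, whose low count gave a wide interval.

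ISL1, a LIM homeodomain factor of all endocrine islet cells, had the largest promoter change. Its domain (hg38 chr5:51380578-51397661, -2.87 to 14.2 kb from the start site and over exons of the gene) held 6755 counts in non-senescent and 9541 in senescent cells. The log2 fold change was 0.50 (SE 0.0495, 3 and 3 libraries, adjusted p = 4.76e-22, 95% interval 0.40 to 0.60), a fold of 1.41. It was higher than that of 94.8% of all 13065 promoter peaks.

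PDX1, the homeodomain factor required to form the pancreas and to drive insulin transcription, was the other gene whose promoter domain rose. Its domain (chr13:27907662-27928266, covering the exons of PDX1 and part of the long non-coding RNA gene PLUT) went from 9118 to 11179.6 counts. The log2 fold change of 0.29 (SE 0.0498, adjusted p = 4.08e-08) stayed below the fold threshold. The intervals of ISL1 and PDX1, 0.40 to 0.60 and 0.20 to 0.39, did not overlap, and the difference between the 2 genes was not tested.

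NEUROD1, the helix-loop-helix factor that binds the insulin gene, was the only promoter domain that fell at an adjusted p under 0.05. Counts over chr2:181672258-181687164 were 6089 in non-senescent and 5559.7 in senescent cells, with a log2 fold change of -0.13 (SE 0.056, adjusted p = 0.047). NKX2-2, a homeodomain repressor and activator of endocrine fate, had the same log2 fold change of -0.13 over chr20:21510486-21538983 (14407 to 13200.4 counts, SE 0.055), and its adjusted p of 0.055 missed the threshold. Between these and PDX1 stood 5 genes whose promoter change did not pass. MNX1, a homeodomain factor of early pancreas and beta cells, had a log2 fold change of 0.092 (10852 and 11566 counts, adjusted p = 0.17). For NKX6-1, the homeodomain factor that separates beta from alpha cells, it was 0.12 (2352 and 2554 counts, adjusted p = 0.092). For RFX6, a winged-helix factor upstream of the endocrine programme, it was -0.074 (6835 and 6492 counts, adjusted p = 0.37). PAX6, the paired-box factor of islet hormone genes, had 16203 and 16290.3 counts and a log2 fold change of 0.0078 (SE 0.047, adjusted p = 0.91). At the small promoter peak of MAFA, the basic leucine zipper factor of mature beta cells, counts were 44.3 and 42.8 (log2 fold change -0.049, SE 0.31, adjusted p = 0.92). In the order of the changes from ISL1 down to NEUROD1, only ISL1 and PDX1 were neighbours whose intervals did not overlap, and the wide interval of MAFA overlapped those of all the others.

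**Figure D2:**
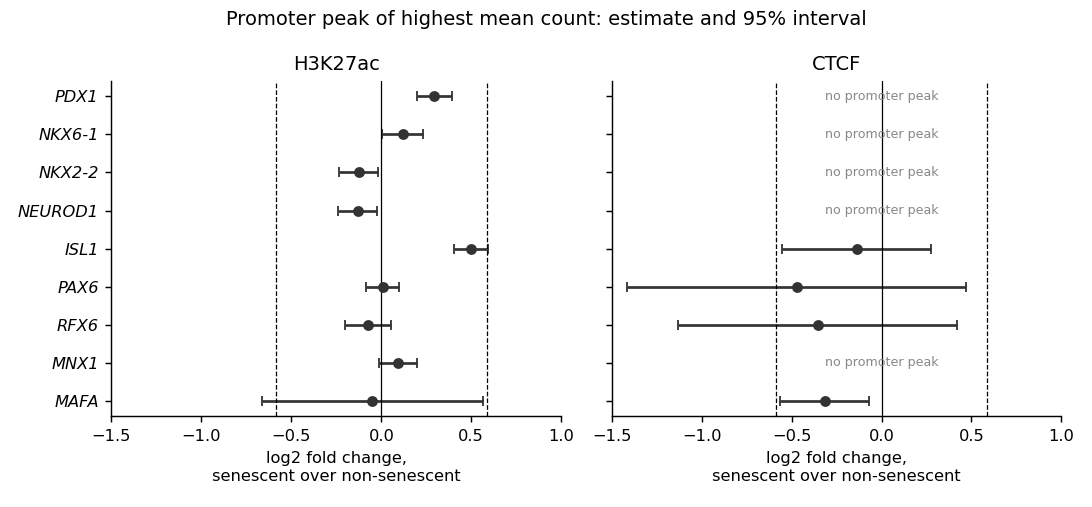
Log2 fold change (x axis, senescent over non-senescent) of the promoter peak of highest mean count for each gene (rows), with 95% intervals as bars, for H3K27ac (left) and CTCF (right). Dashed lines mark a fold of 1.5 in either direction; the H3K27ac point of ISL1 lies farthest right at 0.50, and 5 genes have no promoter CTCF peak.

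The same held for other large domains of these genes. Of the 62 H3K27ac peaks, 12 had a mean of at least 2000 counts, and none of the 12 was gained or lost, while 4.87% of the 1561 such peaks in the table were. Counted at an adjusted p under 0.05 with no minimum fold, 3 of the 12 were higher and 3 were lower, where 35.9% of the 1561 were higher and 20.9% lower (18.9% and 20.3% of peaks of any height). At an unadjusted p under 0.05, 4 were higher and 5 were lower. A change confined to a short stretch of such a domain is averaged over its whole width in these tables.

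Of the 53 H3K27ac peaks outside promoters, 6 (11.3%) were gained and 2 (3.77%) were lost, beside 11.3% and 14.4% of all peaks outside promoters. The 6 gained peaks belonged to ISL1 (3), NKX6-1 (2) and MAFA (1), and both lost peaks belonged to RFX6. All 8 were distal and none overlapped its gene. The median log2 fold change over the 62 was -0.013, against 0.0075 over all peaks. The panels by distance show the called peaks beside the large domains, and the 8 were between 0.5 and 2.76 kb wide.

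**Figure D3:**
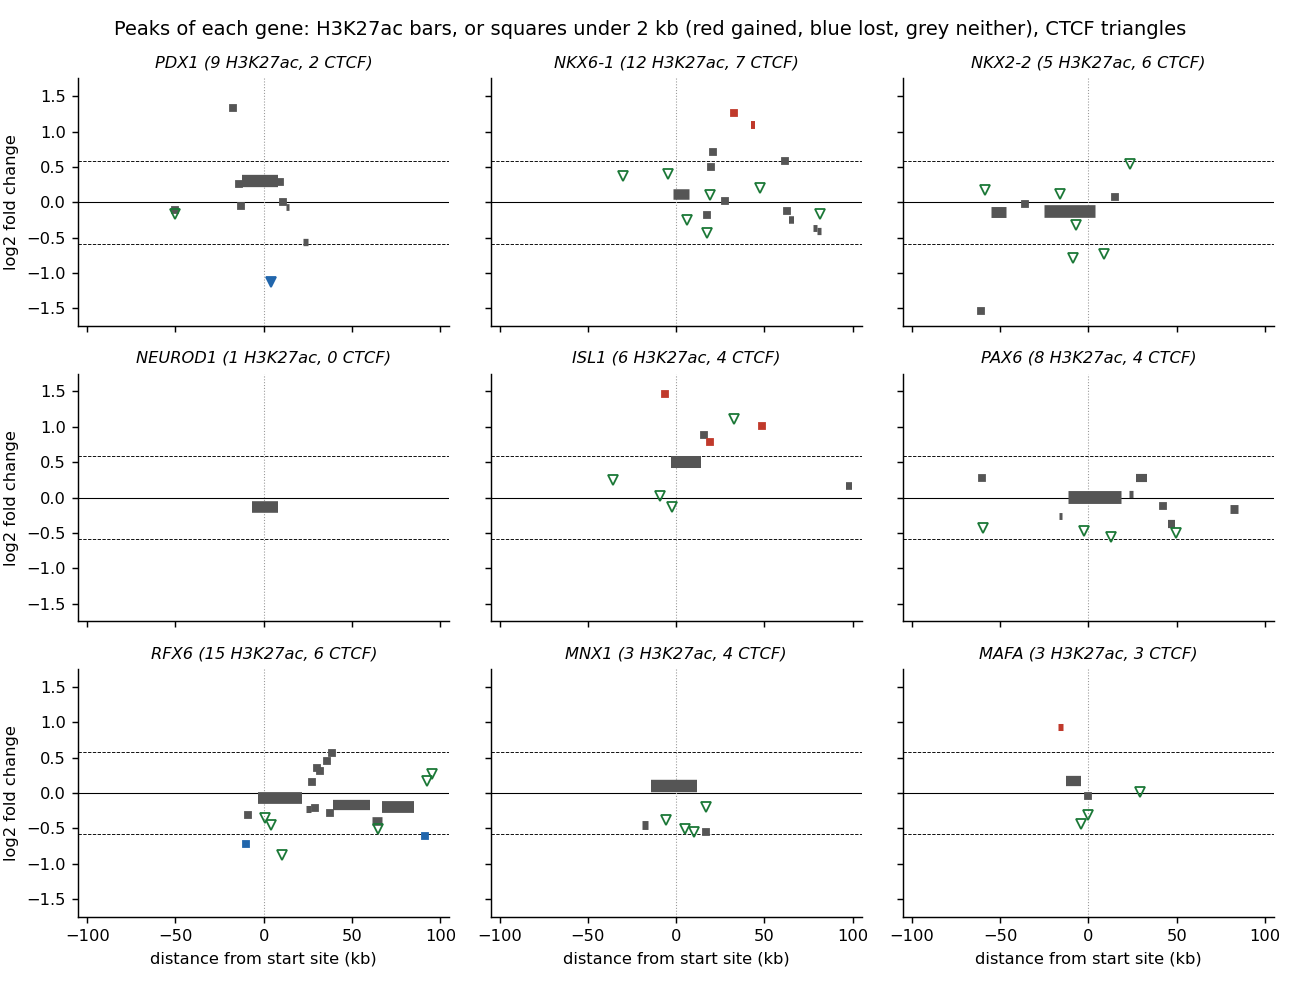
Log2 fold change (y axis) of each H3K27ac peak (bars drawn to scale, squares for peaks under 2 kb, thicker for higher mean counts) and each CTCF peak (triangles) against the distance from the canonical start site in kb (x axis, positive in the direction of transcription), with 1 panel for each gene. Red is gained, blue is lost and grey or green is neither; ISL1 has all of its 6 H3K27ac bars above 0 and RFX6 has 10 of 15 below 0.

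The centres of 4 called peaks are printed as examples of regions with gained or lost acetylation. Each is the middle 300 bases on the forward strand of hg38, in lower case, with capitals for any of the motifs TAATTA (homeodomain core), TGCTGAC (MAF element), CAGATG (helix-loop-helix E-box) and GTTGCC (RFX half-site), searched on both strands.
NKX6-1 gained peak at 42.1 kb, chr4:84455884-84456183 (forward strand): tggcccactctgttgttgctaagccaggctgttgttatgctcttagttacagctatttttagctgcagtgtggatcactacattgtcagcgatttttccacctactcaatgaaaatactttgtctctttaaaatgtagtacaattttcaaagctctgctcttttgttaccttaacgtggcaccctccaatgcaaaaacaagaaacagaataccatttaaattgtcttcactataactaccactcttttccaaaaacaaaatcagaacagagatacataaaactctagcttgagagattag
NKX6-1 gained peak at 32.1 kb, chr4:84466639-84466938 (forward strand): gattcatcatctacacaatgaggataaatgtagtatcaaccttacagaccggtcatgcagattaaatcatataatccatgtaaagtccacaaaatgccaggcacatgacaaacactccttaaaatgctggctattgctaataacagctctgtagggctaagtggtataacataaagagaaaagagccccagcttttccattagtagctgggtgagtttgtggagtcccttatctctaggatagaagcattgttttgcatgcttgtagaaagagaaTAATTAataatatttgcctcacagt
ISL1 gained peak at 18.9 kb, chr5:51402719-51403018 (forward strand): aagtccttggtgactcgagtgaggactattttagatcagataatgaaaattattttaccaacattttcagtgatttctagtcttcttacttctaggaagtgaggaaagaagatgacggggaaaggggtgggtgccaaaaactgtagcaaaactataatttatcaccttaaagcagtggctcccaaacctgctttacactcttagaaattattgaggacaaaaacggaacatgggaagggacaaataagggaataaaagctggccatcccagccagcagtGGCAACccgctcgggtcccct
RFX6 lost peak at 90.7 kb, chr6:116968609-116968908 (forward strand): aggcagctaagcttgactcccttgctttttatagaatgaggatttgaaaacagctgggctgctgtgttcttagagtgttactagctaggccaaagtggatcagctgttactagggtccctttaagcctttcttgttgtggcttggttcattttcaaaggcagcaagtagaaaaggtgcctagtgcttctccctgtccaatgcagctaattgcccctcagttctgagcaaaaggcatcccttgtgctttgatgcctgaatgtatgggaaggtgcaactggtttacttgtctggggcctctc
The first and the last hold none of the 4 motifs, the second holds TAATTA and the third holds GTTGCC on the other strand. Of the called peaks not printed, the other gained ISL1 peaks and the upstream lost RFX6 peak held none of the 4 motifs in this window. The same middle windows of all 51489 peaks held TAATTA in 8.73%, TGCTGAC in 5.1%, CAGATG in 22.7% and GTTGCC in 12.8%, and those of the 62 peaks held them in 11.3%, 3.23%, 12.9% and 14.5%. None of the 4 motifs contains another, and a match is a description of the letters only.

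The gained NKX6-1 peak at 42.1 kb past the start site (chr4:84454893-84457173, intergenic) rose most firmly. It had 202 counts in non-senescent and 428 in senescent cells, a log2 fold change of 1.09 (SE 0.12, adjusted p = 4.97e-17, 95% interval 0.84 to 1.33). It lay in an enhancer listed in both states, and it was the only peak of the 62 that also passed a test against a fold change of 1.5. A smaller intergenic peak at 32.1 kb (chr4:84466409-84467167) went from 14.3 to 34.3 counts (log2 fold change 1.26, SE 0.42, adjusted p = 0.0084). NKX6-1 did not rise throughout: 5 of its 12 peaks were below 0, and the peak at 79.85 kb (chr4:84417264-84419442) fell by 0.41 on the log2 scale (SE 0.16, adjusted p = 0.026), short of the fold threshold.

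At ISL1, all 6 H3K27ac peaks had a log2 fold change above 0, and 3 were gained. The peak upstream of the domain at chr5:51376959-51377458, within the divergent transcript ISL1-DT, had 7.92 and 21.8 counts (log2 fold change 1.46, SE 0.53, adjusted p = 0.019). The peak at 18.9 kb (chr5:51402318-51403419, intergenic) had 32.9 and 56.8 counts (0.79, SE 0.30, adjusted p = 0.023). The third, at 48.2 kb (chr5:51431636-51432416, intergenic), lay in an enhancer listed only in senescent cells and had 26.1 and 52.7 counts (1.01, SE 0.34, adjusted p = 0.0090). All 3 have a mean under 50 counts, 2 of them lost their call at an adjusted p under 0.01, and none was given to ISL1 when the nearest start site was sought among genes of all biotypes. Summed over the 6 peaks, ISL1 had 7080.2 counts in non-senescent and 9971 in senescent cells, a ratio of 1.41, of which the promoter domain held 95.6%.

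MAFA had 3 H3K27ac peaks, all upstream of its start site. The largest, at -12.5 to -4.22 kb and reaching an exon of the neighbouring gene ZC3H3 (chr8:143434950-143443198), rose from 1894 to 2128 counts (log2 fold change 0.17, SE 0.064, adjusted p = 0.025), below the fold threshold. The peak behind it, in an intron of ZC3H3 at -17.1 to -14.3 kb (chr8:143445032-143447791), was gained. It had 104.9 and 200.0 counts (0.93, SE 0.16, adjusted p = 1.67e-07) and lay in an enhancer listed only in senescent cells.

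RFX6 was the only one of the 9 with lost H3K27ac peaks, 2 of 15, where 13.1% of all H3K27ac peaks were lost. Its 15 peaks, the most of any of the 9, covered 80.2 kb. Of these 10 were below 0, as were 25449 of all 51489 peaks. The lost peak upstream (chr6:116866497-116867640, intergenic) had 103 and 62.5 counts (log2 fold change -0.72, SE 0.24, adjusted p = 0.0094). The lost peak at the far end, 90.7 kb past the start site (chr6:116967935-116969582, intergenic), had 203 and 134 counts (-0.60, SE 0.18, adjusted p = 0.0024). Both lay in enhancers listed only in non-senescent cells. Between them, past the promoter domain, 3 further peaks fell at an adjusted p under 0.05 but stayed under the fold threshold: the peak over the end of the gene (chr6:116916565-116937192) by 0.17, the next (chr6:116938328-116943965) by 0.40 and the domain at 67.1 to 85.3 kb (chr6:116944361-116962551, with 376 counts per kb against 267 in the promoter domain) by 0.20. Summed over the 15 peaks, counts were 17632 and 15864, a ratio of 0.900.

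The other 5 genes had no called H3K27ac peak. In MNX1, a peak upstream of the domain (chr7:157026347-157030081) fell by 0.46 on the log2 scale, from 772 to 562 counts (adjusted p = 1.22e-05). In PDX1, a peak at 22.3 kb (chr13:27942347-27945141) fell by 0.56, from 228 to 154 counts (adjusted p = 0.00056), just under the fold threshold and opposite in sign to the promoter domain. At PAX6, 2 peaks inside the downstream neighbour ELP4, where regulatory elements of PAX6 are known to lie, moved in opposite directions. The peak at 44.8 kb (chr11:31762403-31766525) fell by 0.38 (adjusted p = 0.0022) and the peak at 27.1 kb (chr11:31778421-31784232) rose by 0.27 (adjusted p = 0.038). For NKX2-2, the upstream domain (chr20:21560685-21569113, 3589 and 3272 counts) had a log2 fold change of -0.13 and an adjusted p of 0.051. NEUROD1 had no H3K27ac peak other than its promoter domain. Summed implied counts over all 62 peaks were 93945 and 96121, a ratio of 1.02, where the sum over all peaks of the table also gave 1.02.

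H3K27ac calls were made at peaks under 50 counts and at peaks with at least 50, but at none of the 12 with a mean of at least 2000. Of the 24 non-promoter peaks with a mean under 50 counts, 4 were gained and none was lost, and of the 29 with at least 50, 2 were gained and 2 lost. Over all genes, 6.9% of non-promoter peaks under 50 counts were gained and 9.02% lost, and of those with at least 50 counts 14.2% were gained and 17.9% lost. The plot of change against mean count shows the 12 largest peaks of the 9 genes between a log2 fold change of -0.20 and 0.50.

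**Figure D4:**
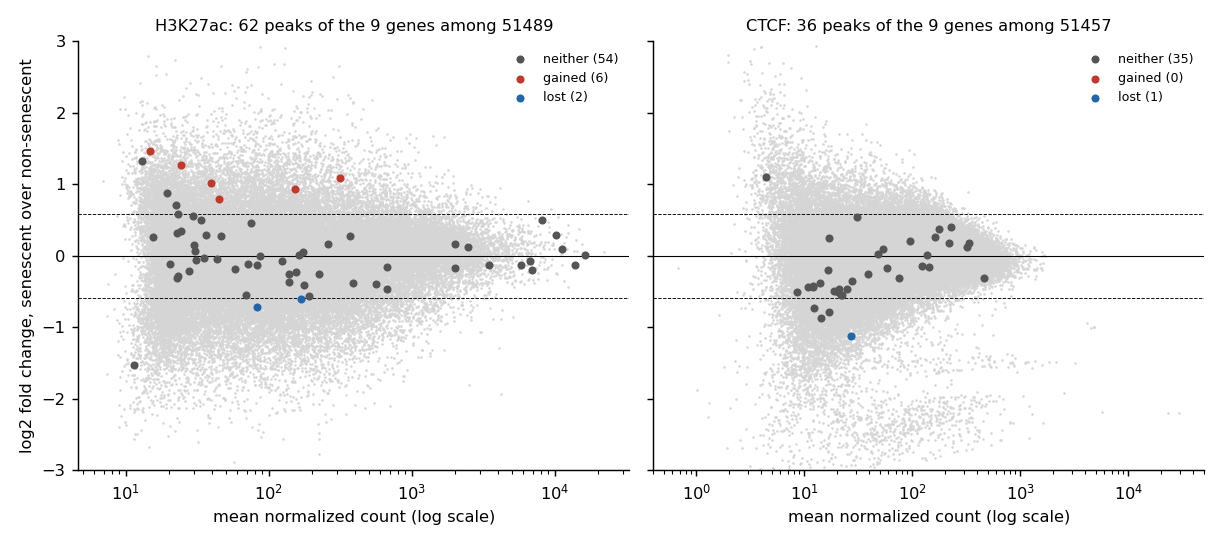
Log2 fold change (y axis, senescent over non-senescent) against mean normalized count (x axis, log scale) for all H3K27ac peaks (left) and all CTCF peaks (right) in grey, with the peaks of the 9 genes in dark grey, red (gained) or blue (lost), and the y axis ends at 3 in each direction. The 6 gained H3K27ac peaks all have means of 315 counts or less, and the only called CTCF peak is a lost one.

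The enhancer lists of the 2 states, which the authors made from overlapping H3K27ac and H3K4me1, held 21 enhancers of the 9 genes in non-senescent and 20 in senescent cells. In each list, 15 had an overlap with the opposite list, 71.4% and 75% of each, close to the 70.6% and 79.5% of the whole lists. RFX6 had the most, 9 and 7. NKX6-1 had 5 and 3, PAX6 had 2 and 3, and ISL1 and MAFA each went from 1 to 2. PDX1 had only 1, listed in senescent cells, and NEUROD1 had none in either list. The 6 H3K27ac peaks in enhancers of the non-senescent list alone all had a log2 fold change below 0 and 2 of them were lost, where 45.7% of all peaks of this class were lost. Of the 5 in enhancers of the senescent list alone, 4 were above 0 and 2 were gained, where 45.7% of all peaks of this class were gained. The exception was the PDX1 peak at 22.3 kb, which fell while its enhancer was listed only in senescent cells. Over all genes, 82.1% of peaks in the first class were below 0 and 84.5% in the second were above 0. The lists rest on the same H3K27ac libraries as the fold changes, so this is a description and not a separate measurement.

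**Figure D5:**
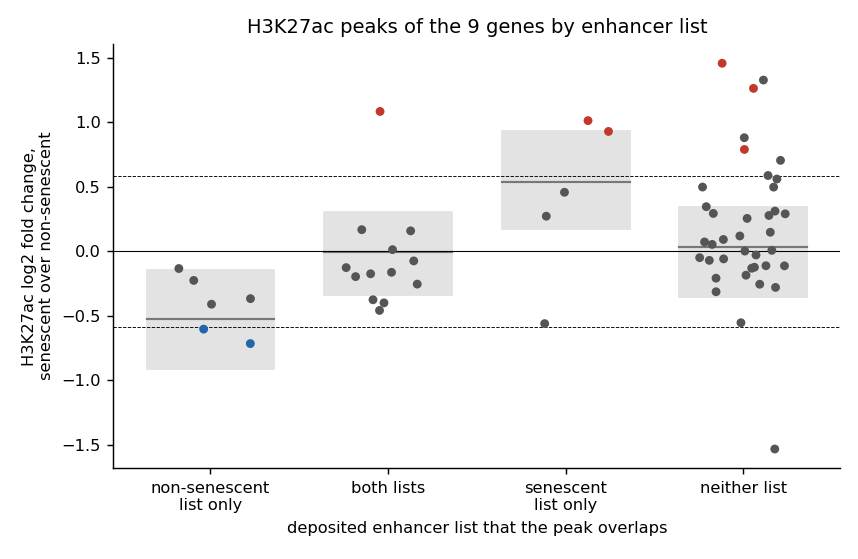
Log2 fold change (y axis, senescent over non-senescent) of the 62 H3K27ac peaks of the 9 genes (points, red gained, blue lost) by the enhancer list they overlap (x axis), over the median (line) and interquartile range (grey box) of all peaks of that class. All 6 points of the non-senescent list lie below 0 and 4 of 5 of the senescent list lie above it.

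The typical CTCF peak of the identity genes had a low count. NEUROD1 had no CTCF peak, 4 genes (ISL1, PAX6, RFX6 and MAFA) had a promoter peak, and the 36 peaks had a median mean of 27.2 counts against 58.6 over all CTCF peaks. For 12 of the 36 the authors' table gives no adjusted p, so no call was possible there. No peak was gained and 1 was lost, where 2.99% of the 39485 peaks with an adjusted p were gained and 4.28% were lost. At an unadjusted p under 0.05, 1 of the 36 was higher and 2 were lower.

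The sites that carry the CTCF core are shown because the methods of the study describe a filter of peaks on the CTCF motif. The core searched was CCNNNAGNNGGC on both strands. It was present in 9 of the 36 peaks (25%), in 38.3% of all CTCF peaks and in 9.3% of the same peaks moved by 10 kb. Sites of 4 genes are printed from hg38, 5′ to 3′ on the strand of the core, with the core in capitals and 9 bases on each side.
PDX1, chr13:27924240-27924269 (forward strand): cctgtgtcgCCCGCAGGCGGCgcctacgct
NKX6-1, upstream, chr4:84504025-84504054 (reverse strand): aagttttttCCACAAGAGGGCgataactgt
NKX6-1, in the gene, chr4:84493437-84493466 (reverse strand): gacagagcgCCTCAAGGGGGCctcggagaa
NKX2-2, chr20:21572269-21572298 (reverse strand): aagtatctgCCACTAGAGGGCactggagat
MNX1, at 4.9 kb, chr7:157005669-157005698 (forward strand): ccctcaagtCCCGCAGGCGGCgtccgctgc
MNX1, at 10.1 kb, chr7:157000246-157000275 (reverse strand): aataaaactCCTAAAGCCGGCcgggcctcc
The core of PDX1 and the first of MNX1 have the same 12 letters.

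The lost CTCF peak was that of PDX1 (chr13:27924075-27924531), over an exon 4.08 kb past the start site and inside the domain of H3K27ac. It had 37.1 counts in non-senescent and 17.0 in senescent cells, a log2 fold change of -1.12 (SE 0.43, adjusted p = 0.12). The GC fraction of the peak is 0.659, and after the trend of CTCF change with GC content was removed the log2 fold change was -0.79 with an adjusted p of 0.51, so the call did not hold. That trend was fitted on CTCF peaks outside promoters, listed enhancers and H3K27ac peaks, which leaves out this peak. H3K27ac of the domain around it rose, as given above. The CTCF peak with the highest count of the 9 genes spanned the start site of MAFA (chr8:143429415-143432075), with 515 and 414 counts. Its adjusted p of 0.14 passed, but the log2 fold change of -0.32 (SE 0.13, 95% interval -0.56 to -0.068) stayed below the fold threshold, and it turned to 0.14 with an adjusted p of 0.75 when the GC trend was removed. The same was true in the other direction of a peak 4.24 kb upstream of NKX6-1 (chr4:84503532-84504795), which had 195 and 256 counts (log2 fold change 0.40, SE 0.17, adjusted p = 0.18, and 0.22 with an adjusted p of 0.71 without the GC trend). Promoter peaks of ISL1 (127 and 116 counts, -0.14, adjusted p = 0.76), PAX6 (24.4 and 17.6 counts, -0.47, adjusted p = 0.62) and RFX6 (30.7 and 24 counts, -0.36, adjusted p = 0.65) did not pass.

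The signs of CTCF change are given as a description, since a difference between sites was not tested. All 12 CTCF peaks in a promoter window or gene body of the 9 genes had a log2 fold change below 0. Their median was -0.46, and 1 was lost. An adjusted p was given for 4 of 4 peaks in a promoter window and 5 of 8 in a gene body. Of all 30645 CTCF peaks in these places, with or without an adjusted p, 1.73% were gained and 3.11% lost. The 24 peaks given by nearest start site had 13 above and 11 below 0. Of all CTCF peaks in a promoter window or gene body, 54.7% were below 0, and of those that also lay inside an H3K27ac peak, as all of the 12 did, 65.5% were. With the GC trend removed, 9 of the 12 were below 0, with a median of -0.25, against 48.9% of all. Of all 36 peaks, 23 lay inside an H3K27ac peak and 20 of these were below 0, while 10 of the 13 outside were above 0, and of all CTCF peaks 63.2% of those inside an H3K27ac peak and 46.0% of those outside were below 0. With the GC trend removed these became 17 of 23 below and 6 of 13 below, with 45.9% of all inside peaks and 50.05% of all outside peaks below 0. GC content moved with the sign of CTCF change, and its part in it was not tested beyond this correction. At PAX6 and MNX1, all 4 CTCF peaks of each gene were below 0 (4 and 3 of them without the GC trend), though none passed the test, with summed counts from 86.4 to 61.3 and from 69.7 to 52.5, while their H3K27ac domains had the small changes given above.

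Of the 2435 senescence-specific regions of the retinoblastoma protein Rb, 1 (0.0411%) had an identity gene as its nearest start site within 100 kb, while the 9 genes are 0.045% of the protein-coding genes. It lay 50.7 kb from the start site of NKX2-2 (chr20:21564799-21564986), inside the upstream H3K27ac domain.

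For comparison, 2 lists of related genes were read in the same way. Of 26 other islet and endocrine regulators, 18 had a promoter H3K27ac peak. Among these only GATA6, a zinc-finger factor of pancreas development, was lost (42.4 and 15.5 counts, -1.45, SE 0.39, adjusted p = 0.001), and their median log2 fold change was -0.033. Their 181 peaks held 17 gained and 20 lost (9.39% and 11.0%). The 3 with the smallest adjusted p were FOXO1, a forkhead factor that responds to insulin signalling (log2 fold change 0.50, adjusted p = 1.64e-14), INSM1, a zinc-finger factor of endocrine cells (-0.43, 6.10e-14), and PAX4, a paired-box factor of beta-cell development (-0.38, 6.66e-08), and none of them passed the fold threshold. Of 20 effector genes that these factors are known to act on, 18 had a promoter peak, with 3 gained, 1 lost and a median of 0.21, beside 4.53% gained and 9.81% lost over all promoter peaks. Their 114 peaks in all held 8 gained and 12 lost (7.02% and 10.5%). The lost peaks were not spread over the list, since 8 of the 12 were among the 11 peaks of PCSK1. The lost promoter was that of PCSK1, which encodes the proinsulin-cleaving convertase (1684 and 632 counts, log2 fold change -1.41, SE 0.085, adjusted p = 8.18e-59). The granule protein gene SCG5 was gained (1099 and 1915 counts, 0.80, SE 0.071, adjusted p = 2.50e-27), and the zinc transporter gene SLC30A8 rose by 0.47 on the log2 scale without passing the fold threshold (adjusted p = 1.56e-12). Named after their values were seen, IAPP, which encodes islet amyloid polypeptide (0.93), and ERO1B, an oxidase of disulfide bond formation (0.74), were the other gained promoters. In CTCF, the effector promoters with the smallest adjusted p were those of ABCC8 (-0.87), PCSK1 (-0.93) and PCSK2 (-0.66), and all 3 were lost. Of the 18 other regulators with a promoter CTCF peak, MYT1 was lost (-0.75, adjusted p = 0.020). The 9 identity genes shared these libraries with both lists, and no test between the lists was made.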

How the data were processed

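H3K27ac and CTCF ChIP-seq of EndoC-βH3 cells (3 senescent and 3 non-senescent libraries each, with inputs, among 40 libraries in all) was used. The authors trimmed reads, aligned them to hg38 with Bowtie2, called peaks against input (HOMER for H3K27ac, MACS2 for CTCF) and compared raw reads in peaks with DESeq2. Tool versions were not given in the sources used here. The methods describe a CTCF motif filter, although an exact core was found in 38.3% of the CTCF peaks. The deposited signal is the mean normalized read count over libraries. The fold change and its standard error were deposited as log2 values with senescent cells in the numerator. The deposited Wald score equals their ratio, and the p-value and adjusted p-value deposited with it are the authors' own. The region lists deposited by the authors (enhancers of each state, Rb regions) hold positions alone.

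The tables hold this fitted comparison and no counts per library, so no model was refitted, the depth per library is not known from them, and the deposited values were used as they stand. Because the authors' DESeq2 size factors centre the typical peak, a shift of a mark across the genome cannot be seen. Peaks were assigned with GENCODE 44 (promoter window 2 kb, overlap of at least 1 bp). Implied means of the 2 states were computed from the mean and the fold change. Intervals are 95% Wald intervals. The functions were tested on simulated data. Python 3.11.15, pandas 2.3.3, SciPy 1.17.1 and statsmodels 0.14.6 were used. Alternatives were other thresholds and assignment rules, a Wald test against a fold of 1.5, Benjamini-Hochberg adjustment over all CTCF peaks with a p-value, CTCF peaks with a core alone, and removal of a GC trend. The GC trend was a smooth curve fitted on CTCF peaks outside promoters, listed enhancers and H3K27ac peaks, and read at every peak. Its adjusted p was computed anew from the remaining change and the deposited standard error, with Benjamini-Hochberg adjustment over all CTCF peaks. All members are named, with every called peak and the promoter peak of highest mean in each table, and at most 3 genes of each companion list by smallest adjusted p. Further peaks were chosen after their values were seen, for an adjusted p under the threshold or a high count. The members and lists were chosen with earlier results of these data known. Some items are not reported here.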

Additional observations from a re-analysis of the deposited data

How the results depend on the processing

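No paired analysis was possible because the tables hold no values per library; for the same reason no replicate could be left out. The 6 gained and 2 lost H3K27ac peaks became 10 and 10 with no minimum fold change, 1 and 0 under a test against a fold change of 1.5, 3 and 1 with the nearest start site among all biotypes (34 peaks in place of 62, with none of the 3 gained ISL1 peaks), and 0 and 0 in promoter windows and gene bodies alone. A minimum mean of 50 counts left 2 gained, a fold change above 2 left 0 lost, and a limit of 50 kb left 1 lost. For CTCF, 0 gained and 1 lost became 1 and 2 with no minimum fold change. The loss at PDX1 was not called (0 lost) at an adjusted p under 0.05, under a test against a fold change of 1.5, with a minimum mean of 50 counts, or with the GC trend removed. The causes of these moves were not tested beyond what each setting leaves out. All other settings kept each count within 1.5 times. Every alternative used the deposited fold change of an H3K27ac peak, so the sign of a called peak could not change there. Only removal of the GC trend gave a new value, and the PDX1 CTCF peak stayed negative (log2 fold change -0.79). The gained NKX6-1 peak at 42.1 kb kept its call in the 8 alternatives that applied to it. The 3 gained ISL1 peaks have means under 50 counts, and the part of depth in this was not tested.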

Other observations

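Peaks farther from the 9 genes were not used above. Between 100 and 500 kb, 19 further H3K27ac peaks had an identity gene as the nearest start site, of which 4 were gained and 4 were lost, beside 11.3% and 14.4% of all H3K27ac peaks outside promoters. They belonged to NKX6-1 (8 peaks), ISL1 (8) and PAX6 (3). The largest loss was near NKX6-1 (chr4:84323975-84326229, 171 kb from the start site), in an enhancer of both lists, with 242 counts in non-senescent and 115 in senescent cells (log2 fold change -1.07, SE 0.18, adjusted p = 2.15e-08, DESeq2 by the authors). A second peak of NKX6-1 in an enhancer of the senescent list alone (chr4:84291454-84292538, 204 kb away) was gained, with 27.8 and 68.6 counts (1.30, SE 0.33, adjusted p = 0.00033). The gained peak of ISL1 just past the limit (chr5:51487287-51490408, 104 kb away) had 152 and 271 counts (0.83, SE 0.15, adjusted p = 1.47e-07) and was also in an enhancer of the senescent list alone. The 9 CTCF peaks in this range, 5 of NKX6-1 and 4 of ISL1, had log2 fold changes from -0.43 to 0.73 and were not called. These peaks were looked at after the values of the nearer peaks were known.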
